A study of Homo sapiens with 49 samples.

Results

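The inhibitors of DNA binding (ID1, ID2, ID3 and ID4) and the 3 E-protein genes TCF3, TCF4 and TCF12 were followed in doxorubicin-treated lymphoma cells, 7 genes of 19775 with a probe set of their own. All probe sets annotated to 1 of these genes and no other were taken, 35 of 41097 such probe sets, and each gene was read from its brightest one, by the mean of all 49 arrays. The cells were U2932, RIVA, FARAGE, OCI-Ly7, SU-DHL-5 and NU-DHL-1, established lines of diffuse large B-cell lymphoma, which arises from mature B cells and grows fast. The anthracycline doxorubicin, which poisons topoisomerase II on DNA, was given at 0.00061 or 2.5 µg/mL. The labels give no genotype or lymphoma subtype for any line, and no vehicle for the untreated cells.

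Untreated arrays existed for all 6 lines at 0, 2 and 12 h, and for OCI-Ly7, RIVA and U2932 at 48 h. Those 3 lines also had the 48 h array at 0.00061 µg/mL, and all 6 lines had that dose at 2 and 12 h. The 2.5 µg/mL dose had 6 lines at 2 h. It had 5 at 12 h, where SU-DHL-5 has no array, and 2 at 48 h, U2932 and RIVA. Each line, dose and time had 1 array, so the line served as the replicate. Treated and untreated arrays of the same time were compared within a line. Errors rest on the spread between lines, moderated by the variance of other genes. Each array averages a whole culture, so fewer cells with a transcript and less transcript per cell cannot be told apart.

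E proteins are basic helix-loop-helix transcription factors that bind E-box motifs as dimers and drive early B-cell development together with EBF1 and PAX5. ID proteins have the helix-loop-helix but no basic region, so they pair with E proteins and keep them off DNA. ID genes are classical immediate targets of BMP and SMAD signalling, and ID3 and TCF3 are recurrently mutated in Burkitt lymphoma, another B-cell tumour.

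The ID genes are short and lie on different chromosomes of GRCh38.p14: ID1 at chr20:31605289-31606510, ID2 at chr2:8682056-8684461, ID3 at chr1:23557926-23559501 and ID4 at chr6:19837370-19842197. TCF3 (chr19:1609292-1652615), TCF4 (chr18:55222185-55635957) and TCF12 (chr15:56918090-57291310) are much longer. The 250 bases before the start of ID1 (chr20:31605039-31605288, plus strand), ID2 (chr2:8681806-8682055, plus strand) and ID3 (chr1:23559502-23559751, minus strand) are shown because these 3 ID genes moved in different ways. They come from RefSeq, read 5′ to 3′ on the gene's strand. Capitals mark matches, on either strand, to CANNTG (the E-box), TGACG (part of a cAMP response element), CCAAT (bound by NF-Y), TATAAA (the TATA box) or GGGCGG (the GC box).
ID1: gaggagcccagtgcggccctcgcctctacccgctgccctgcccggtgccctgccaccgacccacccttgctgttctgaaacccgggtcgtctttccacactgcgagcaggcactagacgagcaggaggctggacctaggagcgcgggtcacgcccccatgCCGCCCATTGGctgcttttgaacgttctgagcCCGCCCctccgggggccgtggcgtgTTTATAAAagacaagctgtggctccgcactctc
ID2: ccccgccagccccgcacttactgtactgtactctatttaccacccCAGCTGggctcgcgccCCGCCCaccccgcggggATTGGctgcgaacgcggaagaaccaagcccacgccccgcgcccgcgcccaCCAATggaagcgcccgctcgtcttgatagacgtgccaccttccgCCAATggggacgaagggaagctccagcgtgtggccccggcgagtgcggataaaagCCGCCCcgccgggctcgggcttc
ID3: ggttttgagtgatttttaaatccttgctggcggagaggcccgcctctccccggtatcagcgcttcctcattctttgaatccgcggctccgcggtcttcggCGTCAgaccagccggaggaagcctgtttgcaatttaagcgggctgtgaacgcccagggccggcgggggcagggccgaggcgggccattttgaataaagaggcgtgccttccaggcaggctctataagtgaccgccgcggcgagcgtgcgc
The ID1 stretch holds 2 GC boxes, 1 of them touching a reversed CCAAT box, and TATAAA on both strands in an overlapping match. ID2 has 3 CCAAT boxes, 2 GC boxes and 1 E-box. The ID3 stretch has a single match, to TGACG on the reverse strand. Over 35116 RefSeq windows of the same length, CANNTG occurred in 61.8%, GGGCGG in 42.6%, CCAAT in 32%, TGACG in 21.2% and TATAAA in 10.7%. A match is a description of letters and does not show binding.

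Some facts of the whole series bear on every value. MS4A1, CD79A, CD79B, CD22, CD74, PAX5 and PTPRC, 7 of 8 measured B-cell markers, were above the array's median gene on every array. On every array 0 of 7 T-cell, 0 of 7 myeloid, 0 of 5 epithelial and 1 of 6 fibroblast markers (COL1A1) were above it. Those above it on no array were 2 T-cell, 6 myeloid, 2 epithelial and 3 fibroblast markers, so some of the others were above it on some arrays. The mean level of the 7 T-cell markers per line was 4.79 to 5.36 in untreated and 4.98 to 5.91 in 2.5 µg/mL cells at 12 h. Values are log2 intensities after quantile normalization, so a difference of 1 is a change of 2-fold, and each direction is relative to the bulk of genes. At 2.5 µg/mL the median gene differed from untreated by 0.02 at 2 h, 0.20 at 12 h and 0.17 at 48 h. When arrays were instead scaled to the poly-A control transcripts, that median became -0.28, -1.59 and -3.07. With the hybridization controls it became 0.01, -0.46 and -1.28. The called falls of the family at 2.5 µg/mL kept their sign under those scalings, and smaller rises did not all do so. The level of one gene is not comparable with that of another, because probe sets differ in affinity.

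Before treatment the lines stood furthest apart in ID2, ID1 and ID3. The means of each line's 0, 2 and 12 h untreated arrays spanned 6.28 log2 units for ID2 and 5.80 for ID1. They spanned 4.94 units for ID3, 3.16 for TCF4, 2.06 for TCF12, 1.28 for TCF3 and 0.72 for ID4. All 7 genes passed the limma F test between lines at an adjusted p under 0.05 as did 70.5% of all genes tested. That test rests on the spread over times within a line.

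ID1 was highest in U2932, at 9.73 ± 0.07 (SD, n = 3 times), with no other line near it. OCI-Ly7 (6.15 ± 0.30), FARAGE (6.01 ± 0.14) and RIVA (5.94 ± 0.19) had overlapping levels. SU-DHL-5 (3.99 ± 0.31) and NU-DHL-1 (3.93 ± 0.61) were lowest and overlapped each other. ID2 gave another order. RIVA had 12.2 ± 0.01 and U2932 had 11.7 ± 0.09, apart from each other and from the rest. OCI-Ly7 (10.8 ± 0.17), FARAGE (10.4 ± 0.25) and SU-DHL-5 (10.1 ± 0.14) followed, each overlapping its neighbour. NU-DHL-1 stood apart at 5.96 ± 0.14. The span from NU-DHL-1 to RIVA was 77.9-fold, and the fainter second probe set also had NU-DHL-1 lowest (4.26) and RIVA highest (10.2).

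ID3 was highest in OCI-Ly7, at 12.2 ± 0.19, and lowest in FARAGE, at 7.26 ± 0.43. NU-DHL-1 (11.1 ± 0.18) and RIVA (10.9 ± 0.10) overlapped, as did U2932 (9.52 ± 0.15) and SU-DHL-5 (9.22 ± 0.24). NU-DHL-1 was thus lowest in ID1 and ID2 but had the second highest mean of ID3. ID4 lay between 4.98 ± 0.24 in FARAGE and 5.70 ± 0.32 in SU-DHL-5, and every line overlapped the next. Its mean over all arrays, 5.47, was at percentile 45.2 of genes, the only one of the family under the median gene (5.83).

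TCF4 was highest in RIVA (13.4 ± 0.01) and U2932 (13.3 ± 0.07), whose ranges did not overlap on the probe set used. The order of these lines depended on the probe set. The next brightest, 213891_s_at, also had RIVA higher (13.26 against 13.08). All dimmer TCF4 probe sets had U2932 higher, for example 203753_at (12.53 against 12.31) and 212385_at (11.78 against 11.15). SU-DHL-5 (11.3 ± 0.10) and FARAGE (11.1 ± 0.14) overlapped, and so did OCI-Ly7 (10.4 ± 0.08) and NU-DHL-1 (10.3 ± 0.17). TCF12 was highest in RIVA, at 10.0 ± 0.27, and lowest in OCI-Ly7, at 7.97 ± 0.08. The lines SU-DHL-5 (9.36 ± 0.17), FARAGE (9.30 ± 0.16), NU-DHL-1 (9.01 ± 0.17) and U2932 (8.77 ± 0.12) lay between them, each overlapping the next. TCF3 varied least of the E proteins, from 10.8 ± 0.14 in U2932 to 12.0 ± 0.14 in SU-DHL-5. The other 4 lines ran from RIVA (11.5 ± 0.13) to FARAGE (11.8 ± 0.09), and each line above U2932 overlapped the next.

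**Figure D1:**
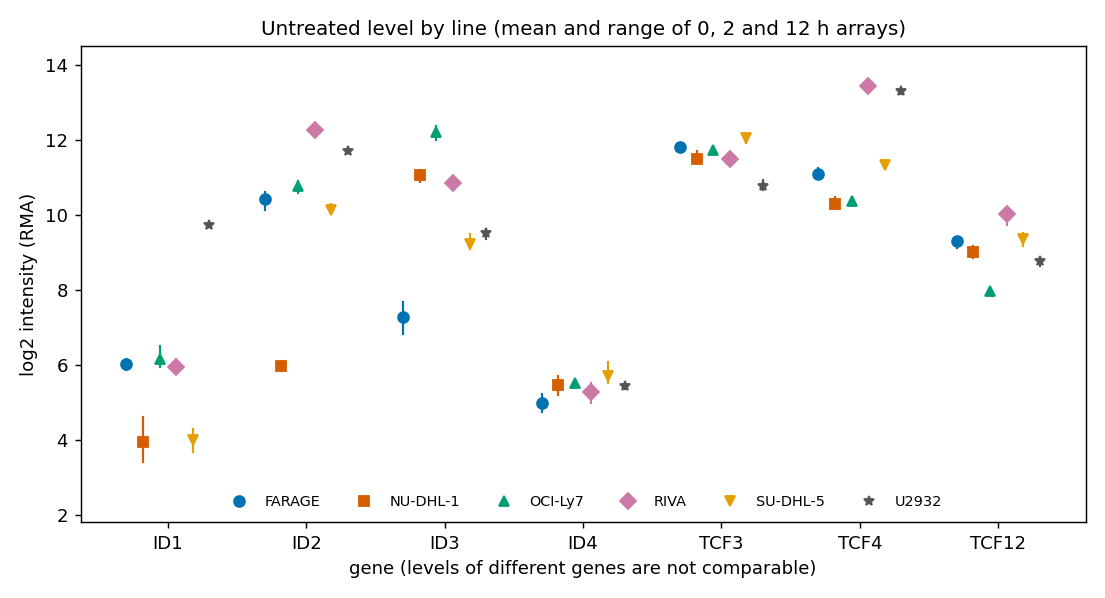
Untreated log2 intensity of the 7 genes (x axis) in each line; points are means of the 0, 2 and 12 h arrays and bars run from the lowest to the highest array. ID1, ID2 and ID3 are spread over 4.94 to 6.28 log2 units, with NU-DHL-1 lowest for ID2 at 5.96 and U2932 highest for ID1 at 9.73, whereas ID4 and TCF3 lie in narrow bands.

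In untreated culture 1 difference over time was called. From 0 to 2 h TCF12 fell by 0.24 ± 0.05 (limma SE, n = 6 lines, adjusted p = 0.0391) and was lower in 6 of 6 lines, in a comparison that called 0.622% of genes. On the poly-A scale this TCF12 difference was 0.02, and leaving out any line but OCI-Ly7 ended the call, with adjusted p of 0.0721 to 0.138. None of the 7 was called at 12 or 48 h against 0 h, where limma called 0.0152% and 0% of genes. At an unadjusted p under 0.05 there were 2 and 3 members, beside 10.4% and 12.9% of genes. At 48 h untreated ID1 was -0.97 ± 0.25 against 0 h (n = 3, adjusted p = 0.297), with -1.77 in RIVA, -0.62 in U2932 and -0.53 in OCI-Ly7.

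At 2 h of 2.5 µg/mL, ID3 was already lower in every line. Its levels were 5.98 in FARAGE, 9.44 in NU-DHL-1, 11.4 in OCI-Ly7, 9.50 in RIVA, 9.01 in SU-DHL-5 and 8.60 in U2932. The untreated arrays of the same time read 7.28, 11.2, 12.4, 10.7, 9.50 and 9.61 in that order. Because lines start so far apart, the groups overlap as a whole, while within lines the differences ran from -1.76 in NU-DHL-1 to -0.49 in SU-DHL-5. Their mean of -1.14 ± 0.11 was known when the family was chosen and is given as a description, without a test. It was the 10th lowest difference of the 19775 genes.

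TCF12 also fell at 2 h, by 0.21 ± 0.05 (adjusted p = 0.0242), from -0.36 in OCI-Ly7 to -0.09 in SU-DHL-5. The call was lost without NU-DHL-1, OCI-Ly7 or U2932 (adjusted p of 0.0652, 0.0846 and 0.0803). It was also lost without the intensity trend in the variance (0.0768), and the mean of the 4 TCF12 probe sets differed by -0.05 (0.805). ID3 apart, TCF12 was the 1 gene called of the other 6 at 2 h, where 10.4% of all genes were called, 4.03% higher and 6.38% lower. TCF3 differed by -0.02 ± 0.03 (adjusted p = 0.779) and TCF4 by -0.07 ± 0.03 (adjusted p = 0.232), and neither was called. The mean of the 8 TCF4 probe sets differed by -0.20 and was called (adjusted p = 0.0204).

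The other ID genes went different ways in different lines at 2 h. ID1 differed by 1.32 in RIVA and 0.93 in SU-DHL-5, but by -0.71 in U2932, -0.45 in NU-DHL-1, -0.42 in FARAGE and -0.12 in OCI-Ly7. Its mean of 0.09 ± 0.22 was not called (adjusted p = 0.858). ID2 differed by 1.72 in NU-DHL-1, where it began lowest, and by 0.63 or less elsewhere, down to -0.28 in U2932. The mean was 0.41 ± 0.19 (adjusted p = 0.218). ID4 differed by 0.26 ± 0.09 (adjusted p = 0.0888) and was higher in 5 of 6 lines, from -0.02 in FARAGE to 0.42 in U2932, on the poly-A scale -0.05.

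At 12 h ID3 was lower in all 5 lines measured. It read 5.18 in FARAGE, 9.68 in NU-DHL-1, 8.13 in OCI-Ly7, 8.22 in RIVA and 7.66 in U2932, against 7.68, 11.1, 12.0, 10.9 and 9.35 untreated. OCI-Ly7, the line with the most ID3 at the start, had the largest difference, -3.86. RIVA differed by -2.66, FARAGE by -2.51, U2932 by -1.69 and NU-DHL-1 by -1.47. The mean fall was 2.44 ± 0.35 log2 units (n = 5, adjusted p = 0.00361), lower in 5 of 5 lines.

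The 3 E-protein genes fell together with it at 12 h. TCF12 read 7.94 in FARAGE, 8.43 in NU-DHL-1, 6.16 in OCI-Ly7, 8.12 in RIVA and 6.81 in U2932, against 9.40, 9.17, 8.01, 10.2 and 8.84 untreated. All 5 lines were lower, from -2.08 in RIVA to -0.75 in NU-DHL-1. The mean fall was 1.63 ± 0.26 (adjusted p = 0.00526). TCF3 fell by 1.05 ± 0.17 (adjusted p = 0.00528), with -1.33 in U2932, -1.32 in NU-DHL-1, -1.28 in OCI-Ly7, -0.69 in RIVA and -0.64 in FARAGE. RIVA thus had the largest fall of TCF12 but a small one of TCF3. The mean of the 14 TCF3 probe sets differed by -0.46 and was not called (adjusted p = 0.0726).

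TCF4 fell by 0.80 ± 0.23 (adjusted p = 0.0348) and was the least even of the E proteins. It differed by -1.70 in FARAGE, -1.07 in RIVA, -0.83 in U2932 and -0.44 in NU-DHL-1, while OCI-Ly7 stood at 0.04. Without FARAGE, RIVA or U2932 the call was lost, with differences of -0.57, -0.73 and -0.79 and adjusted p of 0.0717, 0.114 and 0.0988, and it was at 0.0501 without the variance trend. At 12 h 4 of the 7 were thus called, all lower, in a comparison in which 32.8% of all genes were called, 18.2% higher and 14.7% lower. That background changed with the lines used: 6494 genes were called with all 5, and 2367 without RIVA, 2588 without OCI-Ly7 and 2702 without U2932. Without FARAGE 4475 were called, and without NU-DHL-1 8309. Among the 9887 genes with a mean above the median gene, where 6 of the 7 lie, 27.5% were called lower.

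ID1 at 12 h split the lines. The levels were 7.82 in NU-DHL-1 against 3.77 untreated, 9.43 in RIVA against 5.78, 7.41 in OCI-Ly7 against 6.04, 6.72 in FARAGE against 6.14 and 9.35 in U2932 against 9.81. NU-DHL-1 was higher by 4.05 and RIVA by 3.65, whereas U2932, with the most ID1 at the start, was at -0.45. The untreated NU-DHL-1 level lay below the lowest array median over all probe sets (4.84), near the bottom of the scale, so no fold is given. The mean of 1.84 ± 0.64 was not called (adjusted p = 0.0549). Without U2932 it was 2.41 (adjusted p = 0.04), and without NU-DHL-1 it was 1.29 (adjusted p = 0.123). Scaled to the poly-A controls the mean was 0.05, and on the hybridization scale 1.18 (adjusted p = 0.0238). A joint fit of all arrays, which pools the spread over all groups, called it (0.00243), as it did all 7 genes and 13100 of the 19775 genes tested.

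The ID2 difference at 12 h lay mainly in NU-DHL-1. That line read 11.3 against 6.10 untreated, a difference of 5.15 or 35.5-fold, and the other treated lines read 10.1 to 12.1. OCI-Ly7 differed by 0.82, FARAGE by -0.06, RIVA by -0.11 and U2932 by -0.48. The mean of 1.06 ± 0.74 was not called (adjusted p = 0.265), without NU-DHL-1 it was 0.04, and on the poly-A scale it was -0.72. The second ID2 probe set gave 0.85 ± 0.66 (adjusted p = 0.325). ID4 differed by 0.50 ± 0.18 (adjusted p = 0.0664), from 0.09 in NU-DHL-1 to 0.92 in OCI-Ly7, and its sign turned on the poly-A scale (-1.29) and the hybridization scale (-0.16). Without NU-DHL-1 it was 0.60 and called (adjusted p = 0.0375).

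**Figure D2:**
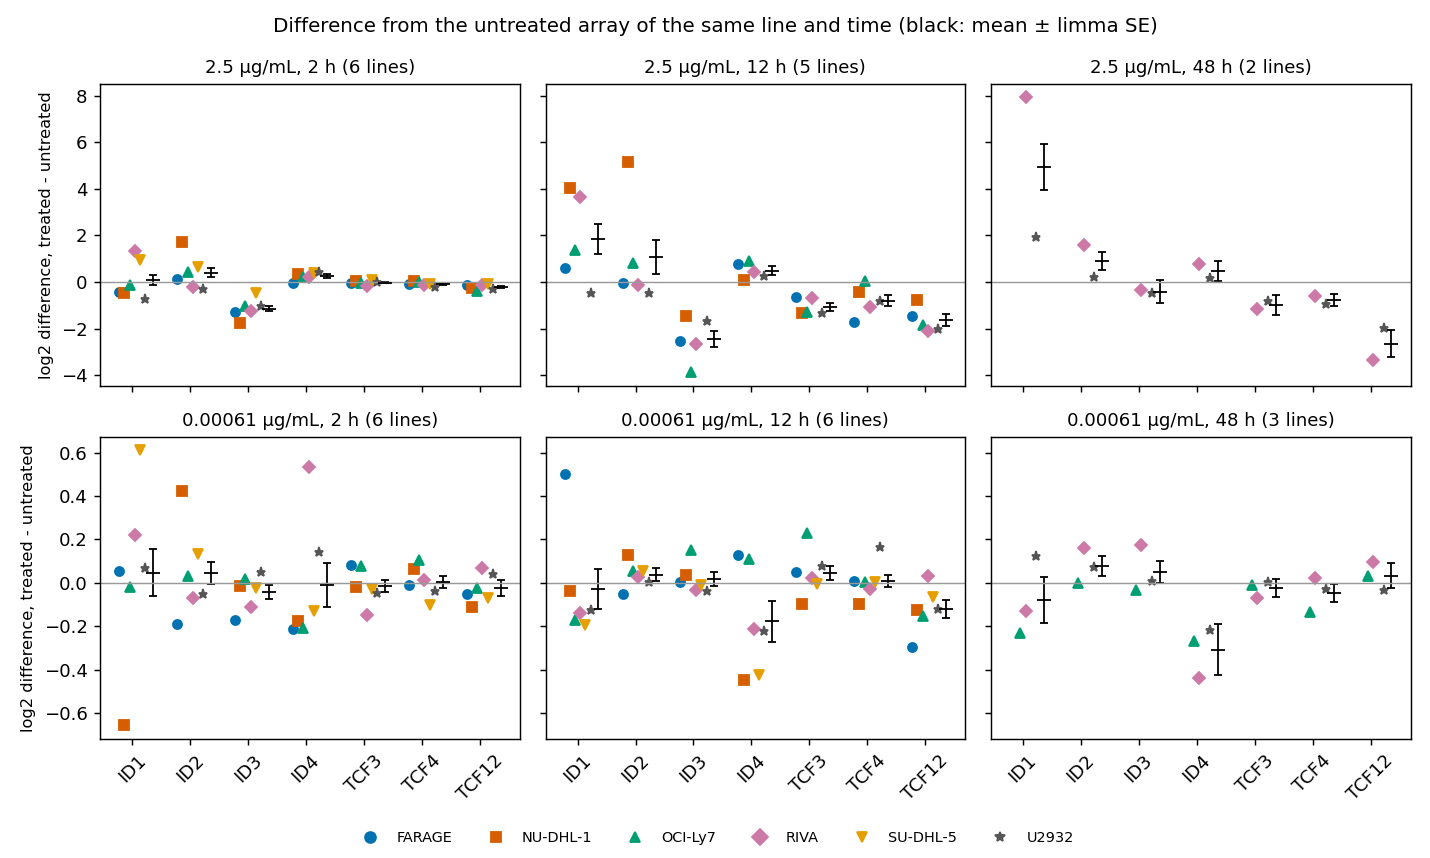
Treated minus untreated log2 intensity of the same line and time for the 7 genes, at 2.5 µg/mL (top) and 0.00061 µg/mL (bottom, on a narrower scale); symbols are lines and black marks are means ± limma SE. At 12 h of 2.5 µg/mL ID3, TCF3 and TCF12 lie below 0 in all 5 lines, ID1 runs from -0.45 to 4.05 and ID2 reaches 5.15 in NU-DHL-1 alone; on the poly-A scale the mean of ID2 is -0.72 and that of ID4 -1.29.

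The change from 2 to 12 h was itself tested within the 5 lines that had all 4 arrays. The TCF12 difference dropped by a further 1.40 ± 0.26 (adjusted p = 0.00878), TCF3 by 1.01 ± 0.18 (adjusted p = 0.00716) and TCF4 by 0.73 ± 0.22 (adjusted p = 0.0418). The ID1 difference rose by 1.92 ± 0.52 (adjusted p = 0.0307) and was positive in 5 of 5 lines, from 0.25 in U2932 to 4.50 in NU-DHL-1. Those 4 of 7 compare with 21.9% of all genes called, 9.29% upward and 12.6% downward. On the poly-A scale the ID1 change was 0.45 (adjusted p = 0.278). From the mean of its probe sets TCF3 was not called (-0.43, adjusted p = 0.103). The calls of ID1 and TCF4 were lost without RIVA (adjusted p = 0.101 and 0.145). ID1 also lost it without OCI-Ly7 (0.0759), and its change was 1.27 without NU-DHL-1. For TCF4, leaving out FARAGE (0.0882) or U2932 (0.107) did the same. ID3 changed by -1.17 ± 0.39: the values were below 0 in 4 lines, down to -2.85 in OCI-Ly7, and 0.28 in NU-DHL-1. Without NU-DHL-1 that change was -1.54. It uses the 2 h difference of ID3, known when the family was chosen, so it is given as a description, without a test.

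At 48 h only RIVA and U2932 had the high dose, and ID1 rose. In RIVA it reached 12.3 against 4.38 untreated, a difference of 7.92, where untreated RIVA had read 6.15 at 0 h. The 4.38 also lies below the lowest array median. In U2932 it reached 10.97 against 9.05, a difference of 1.92, after lying below untreated at 2 and 12 h. The mean rise was 4.92 ± 0.99 (n = 2, adjusted p = 0.00913), the 23rd highest of 19775. TCF12 fell by 2.64 ± 0.57 (adjusted p = 0.0121), with -3.32 in RIVA, to 7.06, and -1.95 in U2932, to 6.70. These were 2 of 7 called, against 13.9% of all genes, 5.66% higher and 8.28% lower.

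With 2 lines the fit has 1 residual degree of freedom and leans on the variance of other genes. Without the intensity trend in that variance neither gene was called (adjusted p = 0.101 for ID1 and 0.0582 for TCF12). On the poly-A scale ID1 was 1.68 (adjusted p = 0.21). The ID1 differences of the 2 lines have an SD of 4.24, a spread that the error of 0.99 understates.

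ID3 at 48 h was not called. It read 10.4 in RIVA against 10.7 untreated and 8.60 in U2932 against 9.07, so both lines stood higher than at 12 h (8.22 and 7.66). The difference was -0.41 ± 0.49 (adjusted p = 0.588), and on the poly-A scale it was -3.65 (adjusted p = 0.000801). TCF3 (-0.98 ± 0.41, adjusted p = 0.136) and TCF4 (-0.77 ± 0.26, adjusted p = 0.0669) were lower in both lines but not called. Both were called with arrays centred on their median (adjusted p = 0.0469 and 0.00589), in the joint fit (4.08e-08 and 0.000725) and on the poly-A scale (-4.22 and -4.01, adjusted p = 0.000244 and 3.92e-05). Those settings called 3948, 11067 and 19264 of the 19775 genes. TCF4 was also called on the hybridization scale (-2.22, adjusted p = 0.0163) and among genes above the median level (0.025). ID2 differed by 1.60 in RIVA and 0.21 in U2932 (mean 0.91 ± 0.37, adjusted p = 0.126), and on the poly-A scale its mean was -2.33. The 12 and 48 h means come from different sets of lines and were not tested against each other.

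**Figure D3:**
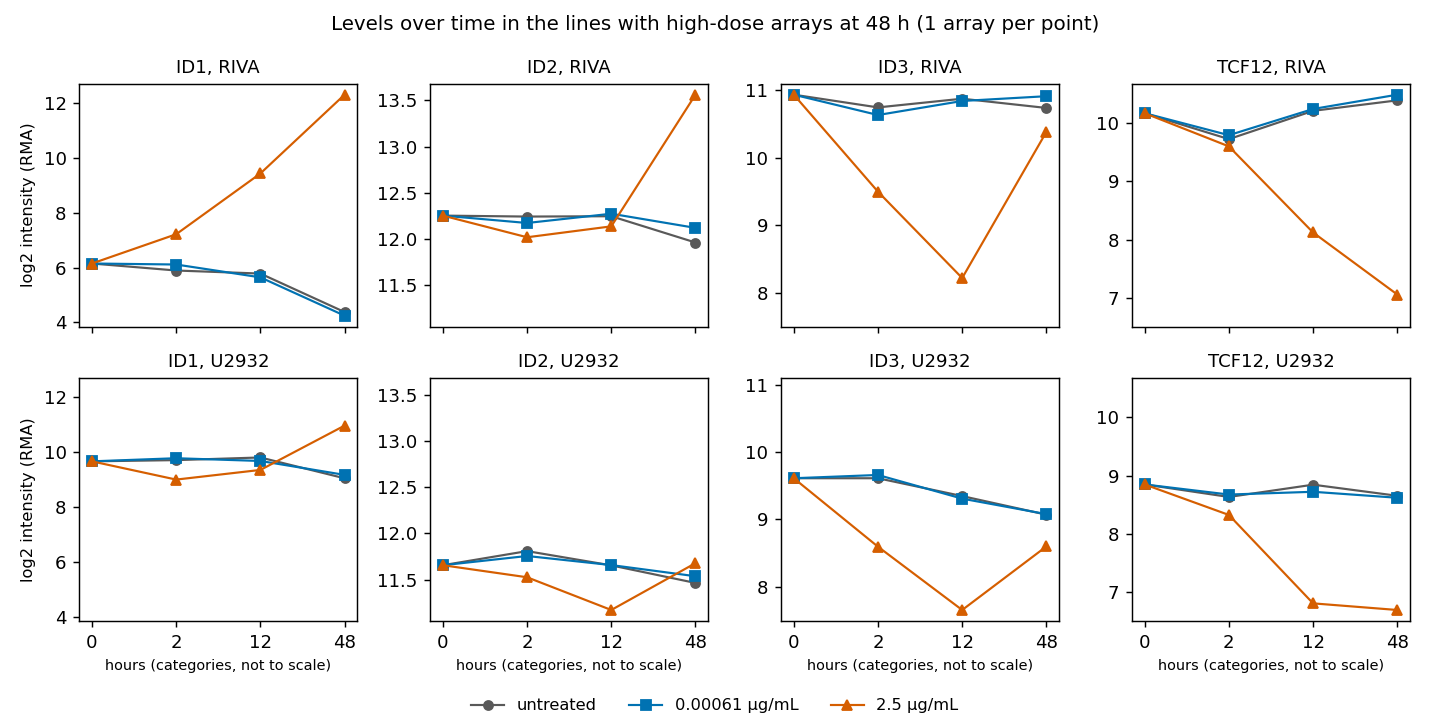
Log2 intensity of ID1, ID2, ID3 and TCF12 in RIVA (top) and U2932 (bottom) against time, 1 array per point, for untreated cells and both doses. In RIVA at 2.5 µg/mL ID1 reads 12.3 at 48 h, ID3 reads 8.22 at 12 h and 10.4 at 48 h, and TCF12 reads 7.06 at 48 h, while low-dose points lie within 0.22 of untreated.

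At 0.00061 µg/mL limma called none of the 7 at 2, 12 or 48 h, and 0% of all genes. At an unadjusted p under 0.05 there were 0, 1 and 1 members, beside 4.09%, 7.49% and 7.41% of genes. The member at 12 h was TCF12, at -0.12 ± 0.04 (adjusted p = 0.622), and that at 48 h was ID4, at -0.31 ± 0.12 (adjusted p = 0.586). ID3 differed by -0.04 ± 0.03 at 2 h, 0.02 ± 0.03 at 12 h and 0.05 ± 0.05 at 48 h. The widest single values were ID1 in NU-DHL-1 (-0.66) and SU-DHL-5 (0.61) at 2 h, in lines where ID1 is near the bottom of the scale.

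The direct comparison of the doses shares the 2.5 µg/mL arrays with the one against untreated. At 2 h ID3 was at -1.09 ± 0.11, a description like its value against untreated. Of the other 6, limma called 0, where 10.2% of all genes were called, 4.22% higher and 5.99% lower. TCF12 was at -0.18 ± 0.06 (adjusted p = 0.0603). At 12 h ID3 (-2.46 ± 0.36, adjusted p = 0.00393), TCF12 (-1.50 ± 0.28, adjusted p = 0.0079), TCF3 (-1.11 ± 0.18, adjusted p = 0.0049) and TCF4 (-0.81 ± 0.24, adjusted p = 0.0378) fell. ID4 rose by 0.62 ± 0.15 (adjusted p = 0.0203), higher in 5 of 5 lines. Those 5 of 7 compare with 29.1% of all genes, 14.8% higher and 14.3% lower. The ID4 rise turned negative on the poly-A scale (-1.33) and the hybridization scale (-0.04), and its call and that of TCF4 were lost without RIVA (0.0729 and 0.124) or U2932 (0.0582 and 0.115). Leaving out OCI-Ly7 ended the ID4 call (0.0713), and leaving out FARAGE the TCF4 call (0.0806). At 48 h ID1 rose by 4.92 ± 0.69 (adjusted p = 3.11e-07) and TCF12 fell by 2.67 ± 0.60 (adjusted p = 0.000877), 2 of 7 against 18.6% of genes, 7.36% higher and 11.2% lower. Without the variance trend the ID1 call was lost (0.0683), and on the poly-A scale ID1 was 1.79 (0.189).

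Most members have several probe sets. ID1 and ID3 have 1 each and cannot be cross-checked. Of 14 TCF3 probe sets at 12 h of 2.5 µg/mL, 7 were called lower and 1 higher, in a test over all 41097 probe sets. The share of those 41097 called is not given, so this count and those for TCF4 are descriptions. Probe sets of the same gene are also not independent. In the separate test over genes, 14.7% were called lower and 18.2% higher at 12 h, and 6.38% lower at 2 h. The 5 brightest ranged from -0.89 ± 0.17 (213730_x_at) to -1.60 ± 0.29 (209153_s_at). Of the 14 probe sets 9 were below 0. That called higher, 202648_at, was at 0.91 ± 0.21 (adjusted p = 0.0193) and higher in 5 of 5 lines. The dimmer 216647_at was at 0.47, also higher in 5 of 5 lines but not called (adjusted p = 0.0751). The choice among the brightest was close for TCF3: 213811_x_at, which was used, had a mean of 11.42 and 210776_x_at, which was not, had 11.40 and a 12 h difference of -1.11.

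TCF4 was below 0 on all 8 probe sets at 2, 12 and 48 h. At 2 h 4 of 8 were called lower although the one used was not, with a range of -0.37 to -0.06. At 12 h 5 of 8 were called lower, from -0.37 ± 0.32 for 222146_s_at, which was not called, to -2.36 ± 0.38 for 228837_at (adjusted p = 0.00515). OCI-Ly7, which showed no fall on the probe set used, ranged from -1.49 on 228837_at to 0.95 on 222146_s_at. For TCF12 the 2 brightest of 4 fell at 12 h, by 1.63 ± 0.26 and 1.22 ± 0.22. The dimmer pair, near 4.55 and 4.31, was at -0.43 ± 0.33 and -0.03 ± 0.18. ID4 ranged from -0.09 to 0.50 over 5 probe sets with none called.

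**Figure D4:**
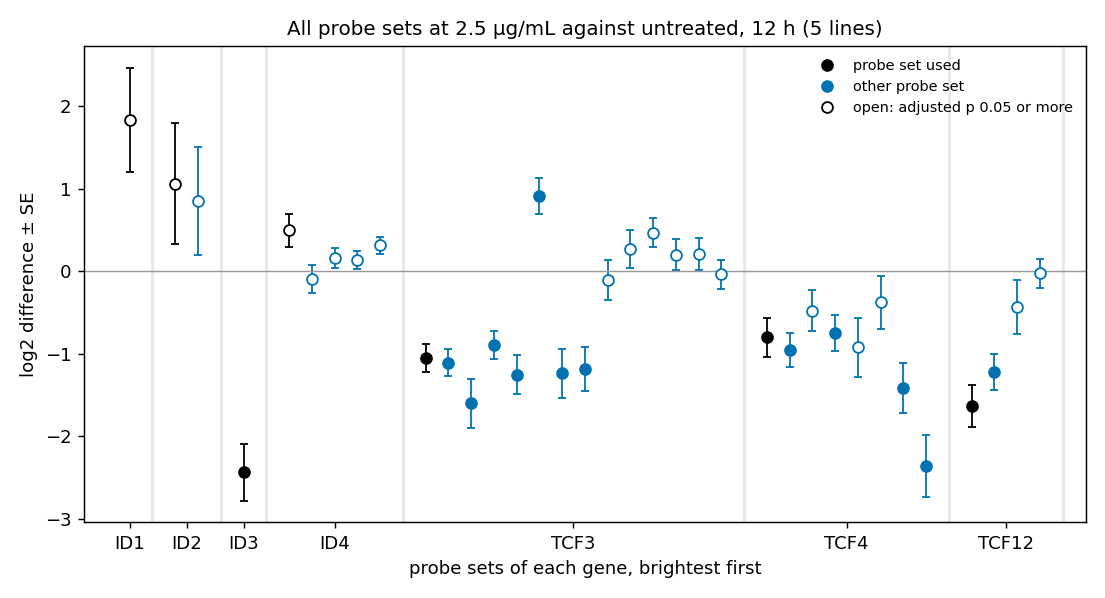
Log2 difference ± SE at 2.5 µg/mL against untreated at 12 h (5 lines) for all 35 probe sets, grouped by gene and ordered from brightest to dimmest; filled points passed an adjusted p of 0.05. The brightest TCF3 and all TCF4 probe sets lie below 0, from -0.37 to -2.36 for TCF4. Of 14 TCF3 probe sets 9 lie below 0, and the highest lies at 0.91.

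Genes that followed each member over the 49 arrays, once each line's mean was removed, were listed as the 3 with the highest Pearson r. The points share lines and treatments, so r mostly reflects the high-dose arrays and is a description. ID1 went with SDC4, a cell-surface heparan sulfate proteoglycan (r = 0.91), RDH10, a retinol dehydrogenase (0.91), and CEBPD, a stress-induced transcription factor (0.89). CEBPD differed by 4.79 ± 0.70 at 48 h, and was chosen on those arrays too. ID2 went with TUBB2A, a beta-tubulin (0.88), GDF15, a stress-induced cytokine of the TGF-beta family (0.87), and KLHL15 (0.85). GDF15 differed by 1.60 ± 0.88 at 12 h.

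ID3 went with ZNF473 (0.89), RUNDC1 (0.89) and IQCB1 (0.88), and ID4 with RAB4B, NTM and YBX2 (0.83, 0.82 and 0.81). TCF3 followed SUSD3, TNFAIP8L1 and CCDC88C (0.95, 0.94 and 0.93), TCF4 followed KLF13, TFEB and CXXC5 (0.92 for each), and TCF12 followed DMXL1, HERC1 and MTMR3 (0.97 for each). The 9 neighbours of ID3, TCF3 and TCF12 differed by -1.17 (MTMR3) to -2.87 (TNFAIP8L1) at 12 h, a direction their choice largely fixes.

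Upstream of the ID genes, 25 of 26 listed BMP and TGF-beta pathway genes were measured. At 2.5 µg/mL, 1 was called higher and 3 lower at 2 h, 7 and 3 at 12 h, and 4 and 3 at 48 h. Over all genes 4.03% were called higher and 6.38% lower at 2 h, 18.2% and 14.7% at 12 h, and 5.66% and 8.28% at 48 h. With arrays centred on their median, 4 of the list were called higher and 4 lower at 12 h, beside 1709 and 3133 of the 19775 genes. The list medians were -0.02, 0.16 and 0.07, close to those of all genes (0.02, 0.20 and 0.17). BAMBI, a decoy receptor that dampens both pathways, rose by 1.02 ± 0.25 at 2 h (adjusted p = 0.0202), 2.24 ± 0.40 at 12 h (adjusted p = 0.00719) and 4.33 ± 0.58 at 48 h (adjusted p = 0.00146). BAMBI was also above 0 on the poly-A scale, at 0.72, 0.46 and 1.09. SMAD7, the inhibitory SMAD, first fell by 0.56 ± 0.15 at 2 h (adjusted p = 0.0265) and then rose by 1.65 ± 0.53 at 12 h (adjusted p = 0.0451) and 2.64 ± 0.54 at 48 h (adjusted p = 0.00995). The later SMAD7 rises became -0.13 and -0.60 on the poly-A scale.

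SMAD4, the shared SMAD partner, fell by 0.16 ± 0.05 at 2 h (adjusted p = 0.0462) and was at -2.11 ± 0.59 at 12 h (adjusted p = 0.0293). The ubiquitin ligase SMURF2 fell by 0.21 ± 0.06 at 2 h (adjusted p = 0.0264), and SMURF1 by 0.93 ± 0.19 at 12 h (adjusted p = 0.0123). The ligand BMP2 rose by 0.65 ± 0.13 and the BMP antagonist NOG by 0.77 ± 0.16 at 12 h (adjusted p = 0.00962 and 0.0128). Both BMP2 and NOG were dim, at 3.17 and 2.51 untreated, and were negative on the poly-A scale, at -1.14 and -1.02.

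Of 22 measured tissue-restricted partners of E proteins, 10 were called higher and 1 lower at 12 h, 0 and 1 at 2 h, and 1 and 0 at 48 h, the last being HAND1 (3.34 ± 0.55, adjusted p = 0.00396). At 12 h 18.2% of all genes were called higher and 14.7% lower, at 2 h 4.03% and 6.38%, and at 48 h 5.66% and 8.28%. With arrays centred on their median 4 partners were called higher at 12 h, beside 1709 of the 19775 genes. The highest-ranked, NHLH1, TAL1, ASCL2 and NEUROG1, rose by 0.92 ± 0.18, 0.78 ± 0.19, 0.61 ± 0.15 and 0.57 ± 0.13 from untreated levels of 5.72 or less. They are factors of neurons, blood stem cells and other tissues. On the poly-A scale all 22 were called lower at 12 h, as were 19106 of the 19775 genes. On the hybridization scale 0 were called higher, beside 206 of all genes. These counts thus follow the scaling of all genes, and the rises hold only relative to the bulk. The one partner that fell, LYL1, a factor of blood progenitors, did so at 2 h (0.36 ± 0.08, adjusted p = 0.00914) and 12 h (1.37 ± 0.40, adjusted p = 0.0355).

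Of 17 measured cofactors and turnover factors of the family, 0 were called higher and 5 lower at 2 h, 1 and 4 at 12 h, and 0 and 2 at 48 h. Over all genes 6.38%, 14.7% and 8.28% were called lower at these times, and 27.5% of the genes above the median level at 12 h, and the cofactor share at 12 h lies between those 12 h shares. The acetyltransferase CREBBP fell, with differences of -0.33 ± 0.06 at 2 h and -1.07 ± 0.32 at 12 h (adjusted p = 0.00386 and 0.0369). EP300, its paralogue, fell, with differences of -0.29 ± 0.08 and -1.31 ± 0.38 (adjusted p = 0.0368 and 0.0336). Of the ETO-family corepressors, CBFA2T3 fell by 2.96 ± 0.23 at 12 h (adjusted p = 0.00102) and CBFA2T2 by 1.40 ± 0.35 (adjusted p = 0.0219). RUNX1T1, the third of that family and the only cofactor called higher, was at 0.55 ± 0.17 (adjusted p = 0.0391). HAND1 and RUNX1T1 were singled out after their values were seen. The E-box repressors ZEB1 and ZEB2 fell at 2 h, by 0.32 ± 0.08 and 0.61 ± 0.17 (adjusted p = 0.0255 and 0.0319), but were not called at 12 h, at -0.45 ± 0.26 and -0.26 ± 0.44.

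Of 22 measured B-cell genes known as E-protein targets, 6 were called lower against untreated at 2 h, 12 at 12 h and 8 at 48 h, and 0 higher, while 5 had values above 0 at 12 h. Over all genes 6.38%, 14.7% and 8.28% were called lower, and 27.5% of those above the median level at 12 h. The list medians were -0.05, -0.95 and -0.84, against 0.02, 0.20 and 0.17 for all genes. Between the doses at 2 h 1 target was called higher and 6 lower, beside 4.22% and 5.99% of all genes. EBF1, the early B-cell factor, fell by 0.38 ± 0.05 at 2 h (adjusted p = 0.000278) and 1.79 ± 0.32 at 12 h (adjusted p = 0.00719). At 2 h FOXO1 fell by 0.56 ± 0.08, BCL11A by 0.69 ± 0.06 and PAX5, the B-cell identity factor, by 0.28 ± 0.04 (adjusted p = 0.00104, 2.74e-05 and 0.000617). At that time TCF3 and TCF4 were not called lower on the probe sets used, although 4 of 8 TCF4 probe sets and 1 of 14 TCF3 probe sets (216645_at, -0.34 ± 0.08, adjusted p = 0.0184) were.

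By 12 h CD79B, a chain of the B-cell receptor, SPIB, BCL11A and POU2AF1, the octamer coactivator, had fallen, with differences of -2.59 ± 0.35, -2.21 ± 0.27, -1.94 ± 0.26 and -1.87 ± 0.17 (adjusted p = 0.00304, 0.0023, 0.00292 and 0.00134). FOXO1 fell by 2.83 ± 0.69 at 12 h (adjusted p = 0.0199). At 12 h 14.7% of all genes were called lower and 18.2% higher, and 27.5% lower among genes above the median level. CD79B and PAX5 are also among the B-cell markers above, of which 5 of 8 were called lower and 2 higher at 12 h. Their part in these falls was not tested.

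Last, ID proteins are linked to the retinoblastoma family and to inhibitors of cyclin-dependent kinases. Of 8 such genes 0 were called higher and 1 lower at 2 h, 2 and 2 at 12 h, and 0 and 1 at 48 h, where 10.4%, 32.8% and 13.9% of all genes were called in either direction. RBL1, a pocket protein related to RB1, fell by 3.49 ± 0.22 at 12 h (adjusted p = 0.000564), and RBL2 by 1.11 ± 0.35 (adjusted p = 0.0428). CDKN2B rose by 2.03 ± 0.66 (adjusted p = 0.0467) and CDKN1C by 0.78 ± 0.14 (adjusted p = 0.00719), which on the poly-A scale became 0.24 and -1.002. CDKN1A, the p53-induced inhibitor, was at 0.45 ± 0.18 at 2 h (adjusted p = 0.148) and -0.26 ± 0.44 at 12 h (adjusted p = 0.646).

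**Figure D5:**
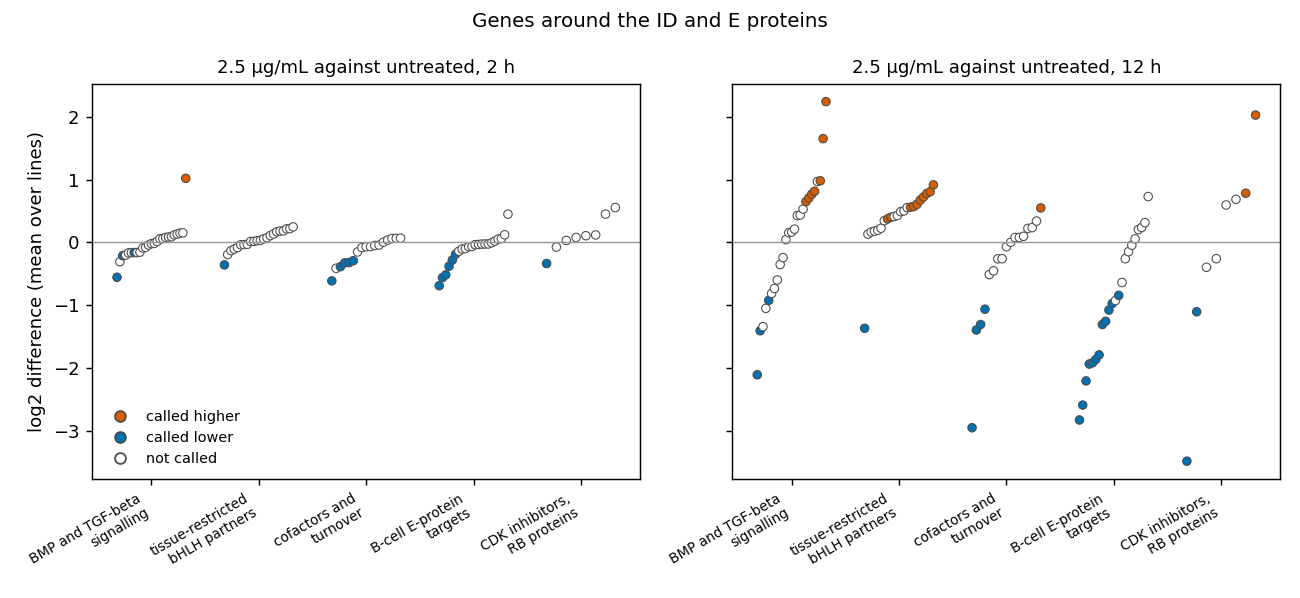
Mean log2 difference over lines at 2.5 µg/mL against untreated at 2 h (left, 6 lines) and 12 h (right, 5 lines) for each measured gene of the 5 lists, in order of size; filled points passed an adjusted p of 0.05. The B-cell target list holds 12 of 22 called lower at 12 h and none higher, while the partner list holds 10 called higher. Of all genes 14.7% were called lower and 18.2% higher. On the poly-A scale all of those 10 were lower, and 19106 of the 19775 genes were called lower.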

How the data were processed

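RNA of 49 untreated or doxorubicin-treated cultures was measured on Affymetrix arrays of 54675 probe sets. The deposited values are log2 intensities. Per the submitters' processing notes the authors used RMA, affy and R 3.0.2; R 4.3.3 and limma 3.58.1 were used here. Probe sets were named from the platform annotation: 41097 had 1 gene, 1801 several and 11777 none, and 41043 of the first were found in the RefSeq table. Of each gene's probe sets, the one with the highest mean over the 49 arrays was used (19775 genes).

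Each comparison was a limma fit with the line as a block and eBayes with an intensity trend on the arrays compared, with Benjamini-Hochberg adjustment over all genes; "called" means an adjusted p under 0.05. The pairing comes from the cell line named in the labels. The labels do not say that lines or doses were cultured more than once, so p-values rest on the spread between lines, moderated by the variance of other genes. Named beyond the 7 members were each member's 3 best-correlated genes and, per list, up to 4 genes with the smallest adjusted p at 2 h and at 12 h of 2.5 µg/mL. The members, lists and tests were chosen with earlier results of these data known. Alternatives were the mean of all probe sets, no block, no trend, a joint fit, median, poly-A (24 probe sets) and hybridization (18) scaling, genes above the median level, and leaving out each line or baseline time. The fits were tested on simulated data, for the paired comparisons with equal shifts in all lines and the spread of the low dose. The spread between lines at 2.5 µg/mL was not simulated. Array number limits the precision.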

Additional observations from a re-analysis of the deposited data

Results flagged for a closer look

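Over 63 sets of per-line differences of the 7 genes, 5 had a line whose gap to the nearest other line was large for the range of the set; chance alone gives about 1 in 20 such sets. NU-DHL-1 was that line for ID2 in 3 of them: against untreated at 12 h of 2.5 µg/mL (5.15, next line 0.82), against 0.00061 µg/mL at 12 h (5.02, next 0.77) and in the change from 2 to 12 h (3.43, next 0.38). These sets share arrays. ID1 in FARAGE at 12 h of 0.00061 µg/mL was at 0.5, with the next line at -0.04. ID1 in RIVA at 12 against 0 h untreated was at -0.37, with the next line at 0.11.

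The 2.5 µg/mL effect differed between 2 and 12 h, by the test of the change itself, for ID1 (1.92), TCF3 (-1.01), TCF4 (-0.73) and TCF12 (-1.40).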

How the results depend on the processing

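Limits: 1 array per line, dose and time; 2 high-dose lines at 48 h, which leave no line to spare there; 1 probe set each for ID1 and ID3; and directions relative to the bulk of genes. Most results of single genes kept their direction and side of the threshold, with the exceptions that follow; the cause was not tested.

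Without the replicate block, that is with the pairing by line dropped, 0 of 2 members were called at 2 h of 2.5 µg/mL, 1 of 4 at 12 h (TCF3) and 0 of 2 at 48 h. ID3 then had an adjusted p of 0.0936 at 12 h. Against 0.00061 µg/mL 0, 1 and 0 were called in place of 1, 5 and 2, and 0 in place of 1 for untreated 2 against 0 h. Of all 19775 genes 0, 2867 and 0 were then called against untreated, and 0, 2334 and 0 between the doses. For untreated 2 against 0 h 0 of all genes were called. This fit adds the spread between lines to the error. Here and below, counts of members at 2 h of 2.5 µg/mL, against untreated or 0.00061 µg/mL, cover ID3, as do those of the change from 2 to 12 h. The 2 h value of ID3 was known when the family was chosen, so its part in them is a description.

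Among differences called under either scaling, poly-A scaling turned the sign of ID4 at 12 h (-1.29) and 48 h (-2.77), ID2 at 48 h (-2.33) and TCF12 in untreated cells at 2 against 0 h (0.021), and of the ID4 change from 2 to 12 h (-1.20). Against 0.00061 µg/mL they turned for ID2 (-0.93 at 12 h, -2.34 at 48 h) and ID4 (-1.33 and -2.34), and with the hybridization controls for ID4 at 12 h (-0.037). Of differences called under neither, those against untreated that turned were ID1 (-0.21) and ID4 (-0.05) at 2 h and ID2 (-0.72) at 12 h on the poly-A scale, and ID4 at 12 h (-0.16) and ID2 (-0.55) and ID4 (-0.99) at 48 h on the hybridization scale. Between the doses and over time, ID1, ID2 and ID4 had further such turns. Members called on the poly-A scale numbered 4 at 2 h, 5 at 12 h and 6 at 48 h of 2.5 µg/mL, beside 7600, 19138 and 19264 of all 19775 genes. At 12 h of 0.00061 µg/mL they numbered 4, beside 6046 genes. Between the doses they numbered 4 at 2 h and 6 at 48 h, beside 6784 and 19273. For untreated 2, 12 and 48 h against 0 h they numbered 2, 2 and 3, beside 1137, 1037 and 6221. With the hybridization controls 1 member was called higher and 4 lower at 12 h of 2.5 µg/mL, beside 7045 genes. At 48 h 1 was higher and 2 lower, beside 5409 genes. Between the doses 2 were called at 2 h and 4 at 48 h, beside 1898 and 11111. Centring on the median gave 4 at 48 h against untreated and 2 at 2 h between the doses, beside 3948 and 1952 genes.

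The joint fit of all arrays called 1 at 2 h, 7 at 12 h and 4 at 48 h of 2.5 µg/mL, 5 at 48 h between the doses, and 0 and 1 for untreated 2 and 48 h against 0 h. Over all genes it called 52, 13100, 11067, 11440, 0 and 945 in that order. Without the trend 1 was called at 2 h and 0 at 48 h of 2.5 µg/mL, 1 at 48 h between the doses and 0 for untreated 2 against 0 h. All genes called there numbered 1004, 9, 1541 and 0. The mean of all probe sets called 2 at 2 h and 3 at 12 h between the doses, 2 for the change from 2 to 12 h and 0 for untreated 2 against 0 h. Beside these stood 1510, 6088, 4302 and 9 genes. Genes above the median level gave 2 at 2 h between the doses, beside 2322 of 9887.

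Leaving out a line gave 1 to 2 members at 2 h of 2.5 µg/mL, 1 to 2 at 2 h and 3 to 5 at 12 h between the doses, 2 to 5 for the change from 2 to 12 h and 0 to 1 for untreated 2 against 0 h. In that order, 1368 to 1729, 1419 to 1675, 2138 to 7066, 1425 to 5712 and 15 to 146 of all genes were called. At 12 h against untreated TCF4 lost its call without FARAGE, RIVA or U2932. There ID1 gained a call without U2932, and ID4 without NU-DHL-1. With 2 lines at 48 h of 2.5 µg/mL, none was left out there.

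Over all genes at 2, 12 and 48 h of 2.5 µg/mL, 2057, 6494 and 2757 were called, against 0, 2867 and 0 without the replicate block, 52, 13100 and 11067 in the joint fit, 1004, 6135 and 9 without the trend and 7600, 19138 and 19264 on the poly-A scale. Leaving out 1 line at 12 h gave 2367 (873 higher and 1494 lower, without RIVA) to 8309 (without NU-DHL-1). At 12 h 3591 were higher and 2903 lower, against 1709 and 3133 with median centring, 206 and 6839 with the hybridization controls and 32 and 19106 with the poly-A controls.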

Other observations

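Within lines, over the 49 arrays, the E-protein genes varied together: Pearson r was 0.84 for TCF3 with TCF12, 0.74 for TCF4 with TCF12 and 0.68 for TCF3 with TCF4. ID3 varied with the E proteins (0.72 with TCF3, 0.64 with TCF12 and 0.57 with TCF4), while ID1 ran opposite to them (-0.76 with TCF12, -0.66 with TCF3 and -0.47 with TCF4). The ID genes did not vary as one: r was 0.59 for ID1 with ID2 but -0.37 for ID1 with ID3. These arrays share lines and the 2.5 µg/mL treatment, so the values are descriptions.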
